A study of Mus musculus with 9 samples.

Results

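The striated myosin heavy chain genes Myh1, Myh2, Myh3, Myh4, Myh6, Myh7, Myh7b and Myh8 were taken as a fixed list from the 52780 genes of the deposited count table, and all 8 were among the 19545 genes that passed the filter on low counts. They were measured by mRNA sequencing in 9 samples of C2C12 cells, an immortal line of mouse myoblasts that fuse into myotubes in culture, collected at day 4 of differentiation. The 3 conditions, with 3 replicates each, were control cells (si Ctrl), cells depleted of macroH2A1.1 (si mH2A1.1) and cells depleted of macroH2A1.2 (si mH2A1.2), and the siRNA concentration given for the knockdown samples was 10 nM. The controls are labelled WT in the deposited series and si Ctrl in the study, which describes its replicates as independent. Both siRNA targets are splice isoforms of H2afy, the gene of the histone variant macroH2A1, and differ in the exon they use. All samples are cultures of the same cell line without nerve or load, and no comparison with adult muscle was made.

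Myosin heavy chain is the motor of the thick filament, and striated muscle chooses between several genes for it. Myh3 encodes the embryonic and Myh8 the perinatal chain, which dominate in newly formed fibres. Myh2, Myh1 and Myh4 encode the adult fast chains IIa, IIx and IIb, listed from the slowest to the fastest contracting. Myh7 encodes the slow chain of type I fibres and of the ventricle, Myh6 the alpha chain of the heart, and Myh7b a related chain whose gene hosts a microRNA.

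The summed H2afy level, in which the counts do not separate the 2 isoforms, was 56.3 to 62.4 CPM with si Ctrl, 30.01 to 38.85 CPM in macroH2A1.1-depleted cells and 43.2 to 47.2 CPM in macroH2A1.2-depleted cells. CPM are library-size-scaled counts, corrected for library composition, and the libraries held 36924252 to 42223108 counts. Myotube genes were present in every sample. The summed level of the 7 markers Myog, Ckm, Acta1, Des, Ttn, Mymk and Mymx was 12310 to 18010 CPM with si Ctrl, 12330 to 14860 CPM in macroH2A1.1-depleted cells and 10390 to 13800 CPM in macroH2A1.2-depleted cells, ranges that overlap. These are bulk samples, so fewer myotubes and less RNA per myotube cannot be told apart in any value below.

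Embryonic Myh3 dominated in all conditions. By counts it ranked between 5 and 11 among all genes of a sample, and the 8 genes together took 0.553% to 0.922% of a library. On the scale of CPM per kb of merged exons, the level of Myh3 with si Ctrl was 1120 ± 239 (SD, n = 3), followed by Myh1 at 79.8 ± 33.4. Perinatal Myh8 at 26.0 ± 9.82 and slow Myh7 at 21.8 ± 8.45 came next, with overlapping samples. Myh7b at 8.98 ± 2.96, Myh4 at 8.13 ± 2.84 and Myh6 at 6.23 ± 2.42 also overlapped among themselves, and Myh2 was lowest at 2.65 ± 1.33. Below Myh3 the order of these per-kb levels was not the same in the knockdowns. With si mH2A1.1, Myh4 stood at 24.1 ± 1.49, its samples overlapping those of Myh8, while Myh7 stood at 7.42 ± 4.56 and Myh6 at 2.05 ± 1.11. With si mH2A1.2, Myh1 stood at 23.6 ± 7.10 and no longer above Myh8 (25.9 ± 10.7) or Myh7 (24.4 ± 3.06), whose samples it overlapped. The place of Myh8 depended on the length used, as its merged exons hold 11772 bases and its longest coding transcript 6149. Scaled by the latter length, Myh8 took 4.84% ± 0.0672 of the 8 genes with si mH2A1.1, and Myh4 2.25% ± 0.150. With si mH2A1.2 these shares were 4.76% ± 1.65 for Myh8, 3.27% ± 0.225 for Myh7 and 2.36% ± 0.517 for Myh1.

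**Figure D1:**
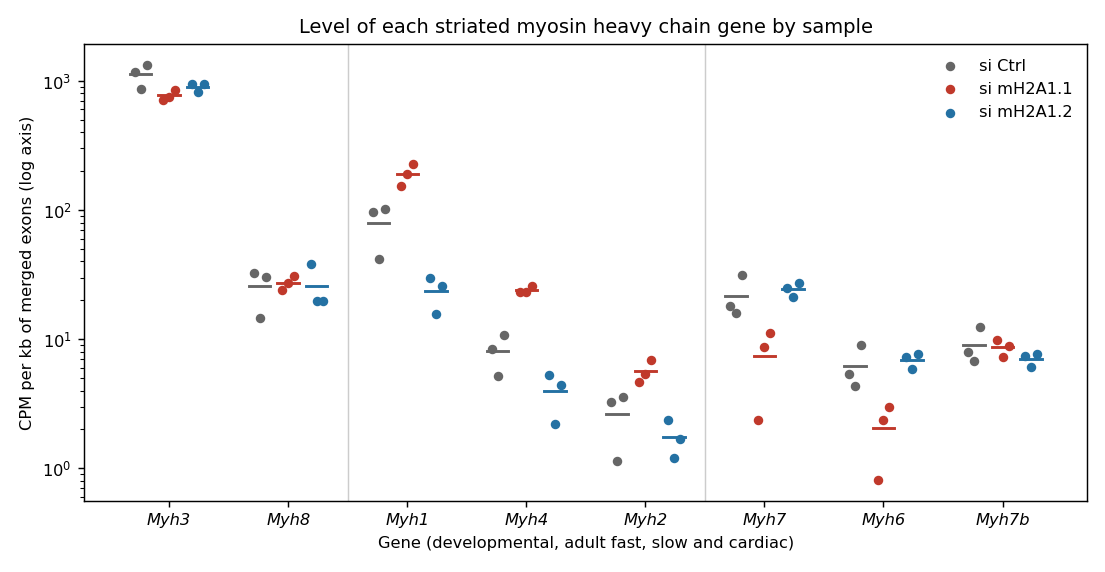
Level of each of the 8 genes in CPM per kb of merged exons (log axis), 1 point per sample and a bar at the mean of 3 samples, coloured by condition. The si mH2A1.1 samples lie above si Ctrl for Myh1, Myh4 and Myh2 and below it for Myh3, Myh7 and Myh6, and Myh3 is above every other gene in each sample.

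Expressed as a share of the summed length-scaled counts of the 8 genes, the adult fast genes Myh1, Myh2 and Myh4 took 6.89% ± 1.64 with si Ctrl, 21.2% ± 1.47 in macroH2A1.1-depleted cells and 2.92% ± 0.700 in macroH2A1.2-depleted cells (SD, n = 3). The slow and cardiac genes Myh6, Myh7 and Myh7b took 2.87% ± 0.553, 1.73% ± 0.296 and 3.86% ± 0.222 in the same order. The developmental genes Myh3 and Myh8 took 90.2% ± 1.69, 77.1% ± 1.77 and 93.2% ± 0.785. The fast share was therefore highest where the slow and cardiac share was lowest, and the reverse held in macroH2A1.2-depleted cells. No fast share of an si mH2A1.1 sample was below 19.6%, and none of an si Ctrl sample was above 8.06% or of an si mH2A1.2 sample above 3.53%. For the slow and cardiac share the ranges were 1.404% to 1.981% in macroH2A1.1-depleted cells, 2.34% to 3.44% with si Ctrl and 3.72% to 4.12% in macroH2A1.2-depleted cells, without overlap. Shares depend on each other, since a rise of Myh1 alone lowers all the others. A lower level of Myh3, the largest part of the sum, likewise raises them. In macroH2A1.2-depleted cells no change of the level was detected for Myh6, Myh7 or Myh7b (edgeR adjusted p = 0.897, 0.900 and 0.455). Myh3 stood there at 898 ± 70.4 CPM per kb beside 1120 ± 239 with si Ctrl, also without a detected change (edgeR adjusted p = 0.427).

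**Figure D2:**
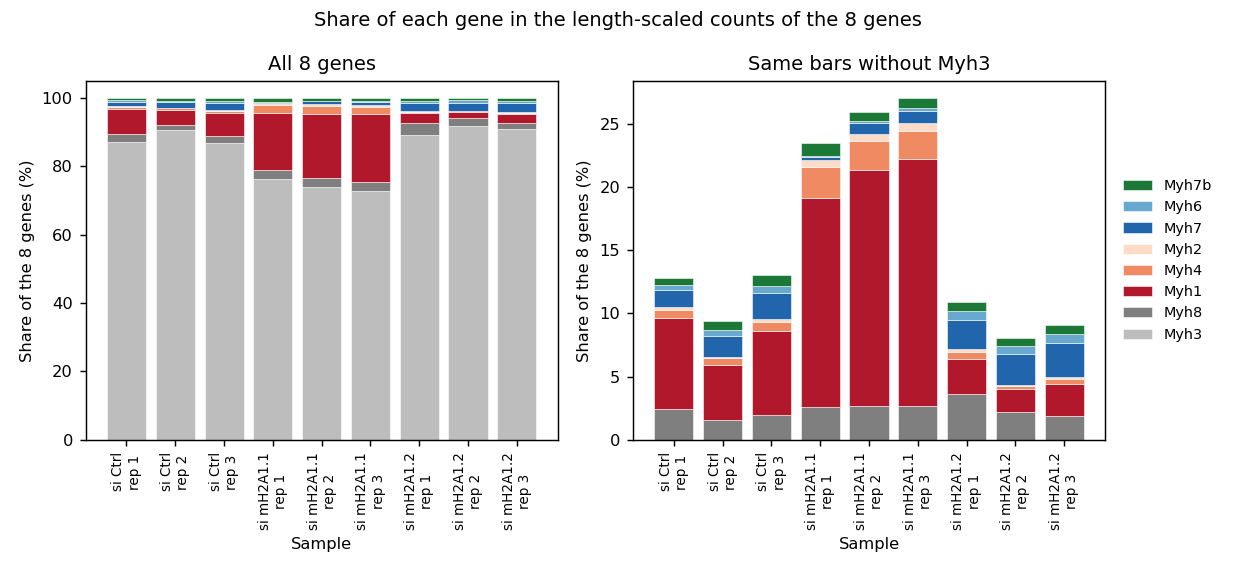
Share of each gene in the summed length-scaled counts of the 8 genes (percent), 1 bar per sample, with all 8 genes on the left and the same bars without Myh3 on the right. Red shades are the adult fast genes, which reach 19.6% to 22.4% in macroH2A1.1-depleted cells, and blue shades are Myh7 and Myh6.

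The share of each gene was compared over the 3 conditions with an exact permutation test over all assignments of the 9 samples to 3 conditions, whose smallest possible p is 0.00357. This smallest p was reached by Myh1, Myh4, Myh6 and Myh7. Myh1 went from 6.07% ± 1.51 with si Ctrl to 18.3% ± 1.58 in macroH2A1.1-depleted cells and 2.35% ± 0.527 in macroH2A1.2-depleted cells, and Myh4 from 0.626% ± 0.0812 to 2.34% ± 0.150 and 0.394% ± 0.131. Myh7 stood at 1.69% ± 0.354, 0.689% ± 0.382 and 2.46% ± 0.156, and Myh6 at 0.481% ± 0.0933, 0.192% ± 0.0911 and 0.695% ± 0.0400. The exact permutation p was 0.00714 for Myh3, with shares of 88.3% ± 2.04, 74.5% ± 1.81 and 90.6% ± 1.42, and 0.025 for Myh2, whose shares were 0.199% ± 0.0691, 0.543% ± 0.0459 and 0.174% ± 0.0448. For Myh7b (p = 0.361, exact permutation) and Myh8 (p = 0.404, exact permutation) no difference of the share was detected. With assignments restricted to the same replicate number, p of Myh2 was 0.0556 in the exact permutation test.

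The test of the levels ran over all genes with edgeR's quasi-likelihood method and Benjamini-Hochberg adjustment. A gene was called at an adjusted p under 0.01 and a log2 change of 0.8 or more either way, and an adjusted p under 0.05 without a fold cutoff was read beside it. In si mH2A1.1 against si Ctrl, 0 of the 8 genes were called, where the rule called 1.8% of all tested genes (1.31% higher and 0.491% lower). DESeq2 called 2 (beside 995 of 37475 genes) and limma-voom 0 (beside 285 of 19545), and 6 of the 8 had an unadjusted p under 0.05. At an adjusted p under 0.05, 2 were higher (Myh1 and Myh4) and 1 lower (Myh6), against 11.1% of all tested genes (6.18% higher and 4.93% lower). In si mH2A1.2 against si Ctrl, 0 were called, where the rule called 0.179% (0.128% higher and 0.0512% lower), and 1, Myh1, was lower at an adjusted p under 0.05, against 2.35% (1.37% higher and 0.982% lower). DESeq2 called 1 (beside 368 of 37475 genes) and limma-voom 0 (beside 37 of 19545), and 2 had an unadjusted p under 0.05. Between both knockdowns, with si mH2A1.1 set against si mH2A1.2, 2 genes were called, Myh1 and Myh4, both higher in macroH2A1.1-depleted cells, where the rule called 6.38% (3.54% higher and 2.84% lower). At an adjusted p under 0.05, 3 were higher (Myh1, Myh2 and Myh4) and 2 lower (Myh6 and Myh7), against 22.5% (12.0% higher and 10.5% lower).

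Samples of the same replicate number deviated together in si Ctrl and si mH2A1.2, and with the replicate number as a block 2 of the 8 genes, Myh1 and Myh4, had an adjusted p under 0.05 in that comparison, while over all tested genes 1005 in place of 460 did. With the same block in si mH2A1.1 against si Ctrl, 2 of the 8 genes were called and 6 had an adjusted p under 0.05. Over all tested genes 795 in place of 352 were called in that comparison, and 4065 in place of 2171 had an adjusted p under 0.05. The 3 samples of si mH2A1.1 lay entirely above or below those of si Ctrl for 6 of the 8 genes, where 34.2% of all tested genes did so. The same held between si mH2A1.2 and si Ctrl for 1 gene, Myh1 (22.5% of all tested genes), and between both knockdowns for 5 genes (39.7%). The comparisons share samples, so their values are set side by side and not counted as independent.

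**Figure D3:**
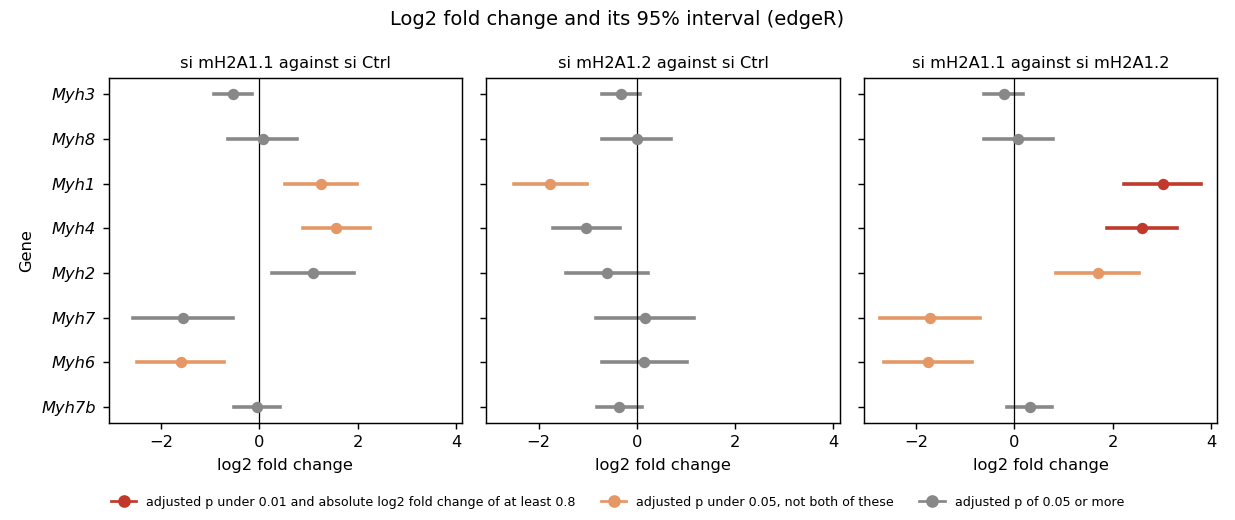
Log2 fold change of each gene (point) with its 95% interval (line) in the 3 comparisons, from edgeR in 1 model of the 9 samples. Red marks the called genes, Myh1 and Myh4 between both knockdowns, orange an adjusted p under 0.05 without meeting both cutoffs, and grey the rest.

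Among the adult fast genes, Myh1, the IIx chain, had the highest level and moved in both knockdowns. Its level in replicates 1, 2 and 3 was 611, 263 and 646.5 CPM with si Ctrl, 977, 1214 and 1451 CPM in macroH2A1.1-depleted cells, and 187, 99.9 and 163 CPM in macroH2A1.2-depleted cells. The conditions did not overlap, although si Ctrl replicate 2 lay closer to si mH2A1.2 than the other controls did. Myh1 rose in macroH2A1.1-depleted cells by 1.26 on the log2 scale (standard error 0.33, a 2.40-fold level) at an adjusted p of 0.0378. With si mH2A1.2 it fell by 1.76 on the log2 scale (standard error 0.34) at an adjusted p of 0.0296. Between both knockdowns the log2 difference was 3.02 (standard error 0.35, 8.09-fold, adjusted p = 0.000539). Against si Ctrl the adjusted p of Myh1 with DESeq2 was 0.00121 in macroH2A1.1-depleted cells and 2.92e-06 in macroH2A1.2-depleted cells. With the replicate block these were 0.00954 and 0.0120. By edgeR, leaving out any of the 6 libraries of si mH2A1.1 and si Ctrl took the adjusted p in macroH2A1.1-depleted cells over 0.05. It was at most 0.119, without si mH2A1.1 replicate 3. Over these omissions the number of all tested genes under 0.05 moved from 2171 to between 605 and 2928. For si mH2A1.2 the adjusted p stayed under 0.05 without si Ctrl replicate 2, si mH2A1.1 replicate 1 or si mH2A1.1 replicate 2, and the other 6 omissions took it to between 0.0508 and 0.104.

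Myh4 encodes IIb, the fastest chain. Its level was 50.3, 31.2 and 65.2 CPM with si Ctrl, 140.1, 139.9 and 155.5 CPM in macroH2A1.1-depleted cells, and 31.9, 13.3 and 26.8 CPM in macroH2A1.2-depleted cells. The si mH2A1.1 samples were close together and above every other sample, and the other 2 conditions overlapped. Myh4 rose in macroH2A1.1-depleted cells by 1.57 on the log2 scale (standard error 0.31, 2.97-fold, adjusted p = 0.0142), with an adjusted p of 0.0515 without si Ctrl replicate 2 and 0.0522 without si mH2A1.1 replicate 3. The log2 fold change in macroH2A1.2-depleted cells was -1.03 (standard error 0.31, adjusted p = 0.128), and the adjusted p was 0.0332 with the replicate block. Between both knockdowns the log2 difference was 2.60 (standard error 0.32, 6.05-fold, adjusted p = 0.000718).

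Myh2, the IIa chain, was the scarcest of the 3. Its level was 23.3, 8.07 and 25.5 CPM with si Ctrl, 33.5, 38.5 and 49.3 CPM in macroH2A1.1-depleted cells, and 16.8, 8.56 and 12.1 CPM in macroH2A1.2-depleted cells. The si mH2A1.1 samples were above all others, and si Ctrl replicate 2 was as low as the si mH2A1.2 samples. The log2 fold change was 1.09 in macroH2A1.1-depleted cells (standard error 0.37, adjusted p = 0.0829) and -0.60 in macroH2A1.2-depleted cells (standard error 0.38, adjusted p = 0.484). Between both knockdowns it was 1.70 (standard error 0.38, adjusted p = 0.0119), where the adjusted p was 0.0523 without si mH2A1.2 replicate 2. In si mH2A1.1 against si Ctrl the adjusted p of Myh2 was 0.02 with DESeq2 and 0.0226 with the replicate block, so its passing depended on the fit.

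The promoters of these genes are shown because the 3 fast genes moved in the same direction between both knockdowns while no change was detected for Myh8 in the same gene cluster. Myh3 of that cluster, whose promoter is not printed, had no detected difference between both knockdowns either (edgeR adjusted p = 0.409). The 250 bases before the RefSeq start sites on GRCm38.p6, plus strand, are printed 5′ to 3′, from chr11:67199852-67200101 for Myh1, chr11:67170777-67171026 for Myh2, chr11:67237562-67237811 for Myh4 and chr11:67276874-67277123 for Myh8. The RefSeq starts of Myh1 and Myh4 are not those of the GENCODE genes given further on. Capitals mark matches to the MEF2 site, the TATA element TATAAA on the gene's strand, and the run TTCTAATTATATCC.
Myh1: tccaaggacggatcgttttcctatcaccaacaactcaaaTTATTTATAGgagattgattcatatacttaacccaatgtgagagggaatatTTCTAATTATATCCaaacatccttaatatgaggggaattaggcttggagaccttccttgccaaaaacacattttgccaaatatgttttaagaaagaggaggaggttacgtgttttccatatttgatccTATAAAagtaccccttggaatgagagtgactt
Myh2: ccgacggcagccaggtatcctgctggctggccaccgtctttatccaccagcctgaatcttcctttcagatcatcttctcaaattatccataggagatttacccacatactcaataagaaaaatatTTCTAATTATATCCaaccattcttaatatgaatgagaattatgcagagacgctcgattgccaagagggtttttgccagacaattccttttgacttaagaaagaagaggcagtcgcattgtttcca
Myh4: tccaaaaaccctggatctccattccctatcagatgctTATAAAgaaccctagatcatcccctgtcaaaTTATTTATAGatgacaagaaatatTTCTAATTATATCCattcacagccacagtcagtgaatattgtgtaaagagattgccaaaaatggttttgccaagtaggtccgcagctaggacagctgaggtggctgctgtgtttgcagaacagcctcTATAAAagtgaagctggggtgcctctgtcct
Myh8: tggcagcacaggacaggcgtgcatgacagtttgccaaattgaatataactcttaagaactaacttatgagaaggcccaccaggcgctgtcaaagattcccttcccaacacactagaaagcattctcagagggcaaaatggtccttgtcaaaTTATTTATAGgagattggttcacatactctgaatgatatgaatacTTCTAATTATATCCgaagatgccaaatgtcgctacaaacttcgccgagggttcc

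The same 10 letters TTATTTATAG matched the MEF2 site, the binding sequence of the MEF2 factors of muscle, in Myh1 (bases 211 to 202 before the start), Myh4 (182 to 173) and Myh8 (99 to 90). No match was found in the windows of Myh2, Myh3, Myh6, Myh7 or Myh7b, and 2.9% of 32851 RefSeq promoters searched on both strands held the site. On the other strand each of these matches holds TATAAA. The TATA element on the gene's own strand stood 32 to 27 bases before the start of Myh1, 31 to 26 and again 213 to 208 before Myh4 and 29 to 24 before Myh3, and 12.4% of all promoters held it on either strand. The run of 14 bases is the longest that the printed promoters share, a comparison made after the sequences were seen, and of all 32851 promoters searched 4 held it, those of Myh1, Myh2, Myh4 and Myh8. Its presence in these 4 was fixed, since the run was taken from them. The E-box CANNTG, read by the myogenic factors, was in the windows of Myh3, Myh4, Myh6, Myh7, Myh7b and Myh8 and in 66.2% of all promoters. These are matches of letters only, and the run and the MEF2 match are also present in Myh8, for which no change was detected.

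By edgeR neither developmental gene passed an adjusted p of 0.05 in any comparison. Myh3 stood at 7063, 5214 and 8065 CPM with si Ctrl, 4305, 4571 and 5143 CPM in macroH2A1.1-depleted cells, and 5687, 4947 and 5684 CPM in macroH2A1.2-depleted cells. The si mH2A1.1 samples were all below the controls, with the highest of them close to si Ctrl replicate 2. The log2 ratio was -0.54 (standard error 0.18, adjusted p = 0.0753) in macroH2A1.1-depleted cells, -0.32 (standard error 0.18, adjusted p = 0.427) in macroH2A1.2-depleted cells and -0.22 (standard error 0.18, adjusted p = 0.409) between both knockdowns. In macroH2A1.1-depleted cells the adjusted p of Myh3 was 0.0115 with DESeq2 and 0.0342 with the replicate block, so whether it passed depended on the fit. Myh8 ranged from 173 to 385 CPM with si Ctrl, 282 to 362.5 CPM in macroH2A1.1-depleted cells and 232 to 450.5 CPM in macroH2A1.2-depleted cells, and all conditions overlapped. Its log2 fold change was 0.07 in macroH2A1.1-depleted cells (95% interval -0.63 to 0.77) and -0.00 in macroH2A1.2-depleted cells (-0.71 to 0.70), intervals that hold changes of either sign.

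Set against Myh3 on the length scale, the ratio of fast to embryonic myosin mRNA differed between the conditions more than Myh3 itself did. For each 100 length-scaled counts of Myh3 there were 4.81 to 8.25 of Myh1 with si Ctrl, 21.6 to 26.9 in macroH2A1.1-depleted cells and 1.93 to 3.14 in macroH2A1.2-depleted cells.

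Of the slow and cardiac genes, all macroH2A1.1-depleted samples lay below the controls for Myh7 and Myh6, and the macroH2A1.2-depleted samples overlapped them. Myh7, the slow chain, stood at 155, 136 and 271 CPM with si Ctrl, 20.3, 75.0 and 96.4 CPM in macroH2A1.1-depleted cells, and 214, 182 and 234.5 CPM in macroH2A1.2-depleted cells. All si mH2A1.1 samples were lower than all others, replicate 1 by far the lowest. The log2 ratio was -1.55 (standard error 0.46, adjusted p = 0.0543) in macroH2A1.1-depleted cells, 0.16 (standard error 0.45, adjusted p = 0.900) in macroH2A1.2-depleted cells and -1.72 (standard error 0.46, adjusted p = 0.0238) between both knockdowns. The last adjusted p was 0.0526 without si mH2A1.2 replicate 2 and 0.0608 without si mH2A1.2 replicate 3. In si mH2A1.1 against si Ctrl the adjusted p of Myh7 was 0.0398 with DESeq2 and 0.0213 with the replicate block, so whether it passed depended on the fit.

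Myh6, the cardiac alpha chain, stood at 36.3, 29.2 and 60.2 CPM with si Ctrl, 5.458, 15.98 and 19.95 CPM in macroH2A1.1-depleted cells, and 48.5, 39.5 and 51.4 CPM in macroH2A1.2-depleted cells. The order of the samples was the same as for Myh7. Myh6 fell in macroH2A1.1-depleted cells by 1.601 on the log2 scale (standard error 0.40, adjusted p = 0.0327), and the adjusted p was over 0.05 when any 1 of the 3 si Ctrl libraries or si mH2A1.1 replicate 1 was left out, at most 0.103 without si Ctrl replicate 3. For si mH2A1.2 the log2 ratio was 0.15 (standard error 0.39, adjusted p = 0.897), and between both knockdowns -1.75 (standard error 0.40, adjusted p = 0.0132). Of the 6 cardiac markers, Nppa was at 0 to 3 counts and Myl7 at 0 to 1 in every sample, Nppb, Tnni3 and Ryr2 stayed at 4 to 133 counts, and Tnnt2, which immature skeletal muscle also expresses, held nearly all of their sum.

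Myh7b stood at 44.6 to 81.7 CPM with si Ctrl, 48.5 to 65.6 CPM in macroH2A1.1-depleted cells and 40.0 to 50.7 CPM in macroH2A1.2-depleted cells, with all conditions overlapping. Its log2 fold change was -0.04 (95% interval -0.51 to 0.42) in macroH2A1.1-depleted cells and -0.35 (-0.82 to 0.11) in macroH2A1.2-depleted cells. Over the 9 samples the correlation of log2 CPM was -0.17 with Myh7 and -0.14 with Myh6.

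Myh6, Myh7 and Myh7b each host a microRNA of the myomiR family, which is known to act on fibre type. Their mature sequences are shown because they tie the 3 genes together, from RefSeq on GRCm38.p6, 5′ to 3′, with the seed (bases 2 to 8) in capitals. They lie at chr14:54949072-54949093 and chr14:54975710-54975731 on the minus strand and chr2:155622893-155622913 on the plus strand, in the order printed.
mmu-miR-208a-3p in Myh6: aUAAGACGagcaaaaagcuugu
mmu-miR-208b-3p in Myh7: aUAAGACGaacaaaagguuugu
mmu-miR-499-5p in Myh7b: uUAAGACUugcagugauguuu

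The seeds of miR-208a-3p and miR-208b-3p were identical, and that of miR-499-5p shared UAAGAC, bases 2 to 7, and differed after it. Libraries of polyadenylated mRNA do not measure mature microRNAs, and the gene entries Mir208a, Mir208b and Mir499 had 0 to 3 counts in every sample. Whether these microRNAs changed with their hosts was not measured.

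In GENCODE M21 on GRCm38, the genes Myh3, Myh2, Myh1, Myh4 and Myh8 follow each other on the plus strand of chromosome 11 between 67078300 and 67308634. Myh6 (54941921 to 54966927) and Myh7 (54970684 to 54994626) are adjacent on the minus strand of chromosome 14, and Myh7b (155611212 to 155634307) is on the plus strand of chromosome 2. The identifiers in the count table are ENSMUSG00000020908 for Myh3, ENSMUSG00000033196 for Myh2, ENSMUSG00000056328 for Myh1, ENSMUSG00000057003 for Myh4, ENSMUSG00000055775 for Myh8, ENSMUSG00000040752 for Myh6, ENSMUSG00000053093 for Myh7 and ENSMUSG00000074652 for Myh7b. The coding transcripts have 39 to 42 exons and are alike, so part of their reads cannot be assigned with certainty. Of all 50-base windows of the longest coding transcript, the length of a read, 32.1% of Myh1, 28.9% of Myh2, 28.3% of Myh7, 22.6% of Myh6, 21.4% of Myh8, 18.9% of Myh4, 4.81% of Myh3 and 0% of Myh7b also occurred in a transcript of another gene. Myh1 shared 1186 windows with Myh2 and 635 with Myh4, and Myh6 shared 1373 with Myh7. Salmon divides reads of such windows between the genes by estimation, and the effect on the values of Myh2 and Myh6, the scarcer of each pair, was not tested.

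Over the 9 samples the correlation of log2 CPM was 0.97 between Myh1 and Myh4, 0.92 between Myh1 and Myh2, and 0.997 between Myh6 and Myh7. These are descriptions, since the pairs share libraries, conditions and the windows above. With the condition means removed, r was 0.90, 0.98 and 0.994 for the same pairs. Myh3 and Myh1, at -0.07 over all samples, correlated at 0.95 once the condition means were removed, as both were lowest in si Ctrl replicate 2 among the controls and highest in si mH2A1.1 replicate 3 among the si mH2A1.1 samples.

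Genes outside the list with the most similar pattern over the 9 samples, by Pearson correlation of log2 CPM, included Mical3 (r = 0.990) and Micall1 (0.984) for Myh1, Slc6a6 (0.985) and Xirp1 (0.976) for Myh2, and Stat5a (0.982) for Myh4. For Myh6 and Myh7 the genes were Zfp445 (0.985), Epm2aip1 (0.979) and Ankzf1 (0.984 with Myh6 and 0.977 with Myh7). For Myh3 they were Matk (0.953) and Sult6b1 (0.942), for Myh8 Armc8 (0.977) and Gm28438 (0.967), and for Myh7b Gm45512 (0.945) and Rnu1a1 (0.944).

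Annotated genes within 50 kb of a myosin gene were followed as well. The long noncoding RNA 2310065F04Rik, between Myh3 and Myh2 on the opposite strand and known as linc-Myh, had 28, 18 and 40 counts with si Ctrl, 94, 71 and 98 in macroH2A1.1-depleted cells, and 23, 19 and 18 in macroH2A1.2-depleted cells. Its si mH2A1.1 samples lay above all others, with a log2 fold change of 1.48 against si Ctrl (adjusted p = 0.0136, and at most 0.0531 over the single omissions, each leaving out 1 of the 9 libraries, without si mH2A1.1 replicate 3) and 1.97 against si mH2A1.2 (adjusted p = 0.00189). The antisense gene 9430073C21Rik, which overlaps Myh2, had 9 to 38 counts with si Ctrl, 57 to 90 in macroH2A1.1-depleted cells and 10 to 15 in macroH2A1.2-depleted cells, with a log2 fold change of 1.46 against si Ctrl (adjusted p = 0.0459, under 0.05 in 1 of 9 single omissions) and 2.29 against si mH2A1.2 (adjusted p = 0.00571). It shares 191 windows of 50 bases with Myh2 and 72 with Myh1, Myhas shares 421 with Myh1, and since a strand setting of the counting is not given in the sources used here, the reads of antisense and myosin genes may not be separate. The antisense gene Myhas, which overlaps Myh1, had 1 to 45, 34 to 70 and 5 to 16 counts in the same order of conditions and log2 fold changes of 0.86 (adjusted p = 0.463) against si Ctrl and 2.20 (adjusted p = 0.0745) against si mH2A1.2.

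Upstream of Myh3, Tmem220 was lower in macroH2A1.1-depleted cells, with a log2 fold change of -0.79 (adjusted p = 0.0413, under 0.05 in 3 of 9 single omissions), while Adprm (0.02, adjusted p = 0.929) and Sco1 (-0.28, adjusted p = 0.0894) did not pass, nor did Mir6923, the microRNA entry inside Myh3 (-0.54, adjusted p = 0.255). Near Myh7b, Acss2, an acetyl-CoA synthetase, fell in macroH2A1.2-depleted cells by 0.88 on the log2 scale (adjusted p = 0.0116), and Gss and Trpc4ap did not pass in any comparison. Near Myh6 and Myh7, none of the tested genes Gm20521, Pabpn1, Slc22a17, Efs, Ngdn and Gm10364 reached an adjusted p under 0.05 in any of the 3 comparisons, the lowest being 0.367. The extraocular heavy chain gene Myh13, next to Myh8, had 10 to 35 counts per sample and did not pass either.

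The partners of the heavy chains were taken from lists of 78 genes, 73 of them tested. With si mH2A1.1 against si Ctrl, edgeR called 3, all higher (beside 1.8% of all tested genes), and at an adjusted p under 0.05 it had 8 higher and 7 lower (beside 11.1%). DESeq2 called 6 higher and 6 lower of the 78 genes in the same comparison, the replicate block likewise 6 higher and 6 lower, and limma-voom 3 higher, so the direction of the calls depended on the fit. Over all genes DESeq2 called 995 of 37475 there, the replicate block 795 of 19545 and limma-voom 285 of 19545. With si mH2A1.2 against si Ctrl, edgeR called 2, both lower (beside 0.179%), and 1 was higher and 7 were lower at an adjusted p under 0.05 (beside 2.35%), or 18 in all with the replicate block, which called 4. Of all 19545 tested genes 1005 passed with that block and 116 were called. Between both knockdowns 10 were higher and 2 lower by the call rule (beside 6.38%), and 26 higher and 10 lower at an adjusted p under 0.05 (beside 22.5%). The median log2 fold change of these genes was 0.01, -0.23 and 0.24 in the 3 comparisons, beside -0.01, -0.00 and -0.01 over all tested genes. Lists and genes overlap with those of the myotube markers.

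Among the 9 fast fibre partners, Pvalb, the calcium buffer parvalbumin of fast fibres, was the gene that was called in all 3 comparisons. It had 130, 61 and 142 counts with si Ctrl, 334, 352 and 447 in macroH2A1.1-depleted cells, and 12, 18 and 14 in macroH2A1.2-depleted cells. The conditions did not overlap. Pvalb rose in macroH2A1.1-depleted cells by 1.63 on the log2 scale (standard error 0.27, adjusted p = 0.00748) and fell by 2.89 in macroH2A1.2-depleted cells (standard error 0.33, adjusted p = 0.00631), a log2 difference of 4.52 between the knockdowns (adjusted p = 0.000124). Against si Ctrl its adjusted p stayed under 0.05 over the 9 single omissions, up to 0.0358 in macroH2A1.1-depleted cells and 0.0314 in macroH2A1.2-depleted cells, but the call rule was met in 1 and 2 of them. In si mH2A1.1 against si Ctrl 0 other genes of this list passed an adjusted p of 0.05 with edgeR (beside 11.1% of all tested genes), and the list median was -0.23. Of the 9 genes, Pvalb included, 3 had an unadjusted p under 0.05, 2 passed with DESeq2 and 1 with limma-voom. Over all genes 3334 of 37475 passed with DESeq2 there and 2091 of 19545 with limma-voom. With si mH2A1.2 its median was -0.71 and Tnnt3, fast troponin T, was the other gene that passed (log2 fold change -0.96, adjusted p = 0.0280), and with the replicate block 5 of the 9 passed and 2 were called. Of all 19545 tested genes 2.35% passed by edgeR in that comparison, and with the block 1005 passed and 116 were called. The fast light chains Myl1 and Mylpf did not pass in macroH2A1.1-depleted cells, with log2 fold changes of -0.10 and -0.28 (adjusted p = 0.810 and 0.312).

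Among the 8 tested slow fibre partners, Atp2a2, the calcium pump of slow muscle and heart, rose where slow Myh7 was lower. It stood at 934, 739 and 958 CPM with si Ctrl, 1617, 1777 and 2262 CPM in macroH2A1.1-depleted cells and 653, 544 and 630 CPM in macroH2A1.2-depleted cells. Atp2a2 rose in macroH2A1.1-depleted cells by 1.104 on the log2 scale (standard error 0.16, adjusted p = 0.00461), and met the call rule in 5 of 9 single omissions, lost when any 1 si Ctrl library or si mH2A1.1 replicate 3 was left out. For si mH2A1.2 the log2 ratio was -0.53 (standard error 0.16, adjusted p = 0.131), and between both knockdowns it was 1.63 (adjusted p = 0.000300). At an adjusted p under 0.05, Tpm3 and Tnnt1 were also higher in macroH2A1.1-depleted cells than in macroH2A1.2-depleted cells, and edgeR found no slow partner lower in any of the 3 comparisons. With si mH2A1.2 against si Ctrl, 0 of the 8 passed by edgeR, 2 by DESeq2, 0 by limma-voom and 2 with the replicate block, and 5 had an unadjusted p under 0.05. Of all 19545 tested genes 2.35% passed by edgeR there and 1005 with the block, and 12.0% were higher between both knockdowns. By DESeq2 1127 of 37475 genes passed in si mH2A1.2 against si Ctrl.

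Of the light chains and their kinases, Mylk2, the light chain kinase of skeletal muscle, followed the fast heavy chains. It stood at 25.4, 25.2 and 33.6 CPM with si Ctrl, 45.1, 41.0 and 51.6 CPM in macroH2A1.1-depleted cells and 10.8, 14.3 and 14.3 CPM in macroH2A1.2-depleted cells. The log2 fold change was 0.71 in macroH2A1.1-depleted cells (adjusted p = 0.0207), -1.09 in macroH2A1.2-depleted cells (adjusted p = 0.0131, called with the replicate block) and 1.80 between both knockdowns (standard error 0.16, adjusted p = 0.000199). Myl4, the embryonic and atrial light chain, fell in macroH2A1.1-depleted cells by 1.05 on the log2 scale (standard error 0.22, adjusted p = 0.0182), from 1142 ± 274 CPM to 553 ± 141 CPM (SD, n = 3). Mylpf, the light chain with the highest level, had an adjusted p of 0.311 in macroH2A1.2-depleted cells.

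Of the thick filament partners, edgeR called 1 gene in 1 comparison, Mybpc1, the slow myosin binding protein C, higher in macroH2A1.1-depleted cells than in macroH2A1.2-depleted cells by 1.04 on the log2 scale (standard error 0.22, adjusted p = 0.00845, called in 2 of 9 single omissions). The M-band genes Myom1, Myom2 and Myom3 and Mybpc2, the fast myosin binding protein C, were also higher in that comparison at an adjusted p under 0.05, and Mybph was lower. Over all tested genes 12.0% were higher and 10.5% lower there. Titin, Ttn, the most abundant of the list, did not pass against si Ctrl, with a log2 fold change of -0.29 (adjusted p = 0.488) in macroH2A1.1-depleted cells and -0.53 (adjusted p = 0.360) in macroH2A1.2-depleted cells. In si mH2A1.2 against si Ctrl 2 of 7 tested genes passed an adjusted p of 0.05, and 4 with the replicate block. Beside them stood 2.35% of all 19545 tested genes by edgeR and 1005 genes with the block. DESeq2 called Mybpc1 and Mybpc3, which edgeR's filter left out, higher in si mH2A1.1 against si Ctrl and Mybpc2 lower in si mH2A1.2 against si Ctrl, and the replicate block called Mybpc1 in the former.

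Of the 9 myosin chaperone and turnover genes, 0 passed an adjusted p of 0.05 against si Ctrl in either knockdown with edgeR, DESeq2 or limma-voom, and 3 in macroH2A1.1-depleted cells and 5 in macroH2A1.2-depleted cells had an unadjusted p under 0.05. With the replicate block 5 of the 9 passed in si mH2A1.1 against si Ctrl, 3 higher and 2 lower, beside 4065 of all 19545 tested genes. Between both knockdowns 5 were higher in macroH2A1.1-depleted cells at an adjusted p under 0.05, beside 12.0% of all tested genes. Smyd1, a methyltransferase that assists thick filament assembly, was called there (log2 fold change 0.94, standard error 0.18, adjusted p = 0.00658, called in 3 of 9 single omissions). Hsp90ab1, the most abundant, had log2 fold changes of 0.09 and -0.13 in the knockdowns (adjusted p = 0.703 in both).

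The non-muscle heavy chain Myh9, the most abundant of its list at 1756 ± 194 CPM with si Ctrl (SD, n = 3), had log2 fold changes of 0.01 (adjusted p = 0.983) in macroH2A1.1-depleted cells and 0.05 (adjusted p = 0.918) in macroH2A1.2-depleted cells. Myh14, a scarce non-muscle chain, was called between both knockdowns, with 66 to 128 counts in macroH2A1.1-depleted cells and 10 to 17 in macroH2A1.2-depleted cells (log2 fold change 2.92, standard error 0.38, adjusted p = 0.000911). With si Ctrl it had 21 to 39 counts.

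The 21 fibre type regulators held 0 called genes against si Ctrl in either knockdown by edgeR, beside 1.8% and 0.179% of all tested genes. In si mH2A1.1 against si Ctrl, DESeq2 called 4 and limma-voom 0, and 10 had an unadjusted p under 0.05, while in si mH2A1.2 against si Ctrl the numbers were 1, 0 and 8. DESeq2 called 995 and 368 of 37475 genes in these 2 comparisons. At an adjusted p under 0.05 by edgeR, Nfatc4, Nfatc2, Foxo1 and Thra fell in macroH2A1.1-depleted cells and 1 regulator rose. Of all tested genes 4.93% were lower and 6.18% higher there. NFAT factors carry the calcineurin signal of slow fibres, and Thra encodes a thyroid hormone receptor. Nfatc4 was the regulator with the largest called difference between both knockdowns, with 44, 76 and 94 counts in macroH2A1.1-depleted cells, 119, 207 and 186 with si Ctrl and 358, 413 and 345 in macroH2A1.2-depleted cells. Its log2 fold change was -1.39 in macroH2A1.1-depleted cells (adjusted p = 0.0134), 1.15 in macroH2A1.2-depleted cells (adjusted p = 0.0489) and -2.54 between both knockdowns (standard error 0.27, adjusted p = 0.000408). Foxo1 (log2 fold change -1.16, adjusted p = 0.00316) and Rcan1, an inhibitor of calcineurin (0.85, adjusted p = 0.00697), were also called in that comparison, in 5 and 1 of 9 single omissions. Tead1, the most abundant, had an adjusted p of 0.0773 in macroH2A1.1-depleted cells and 0.851 in macroH2A1.2-depleted cells.

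**Figure D4:**
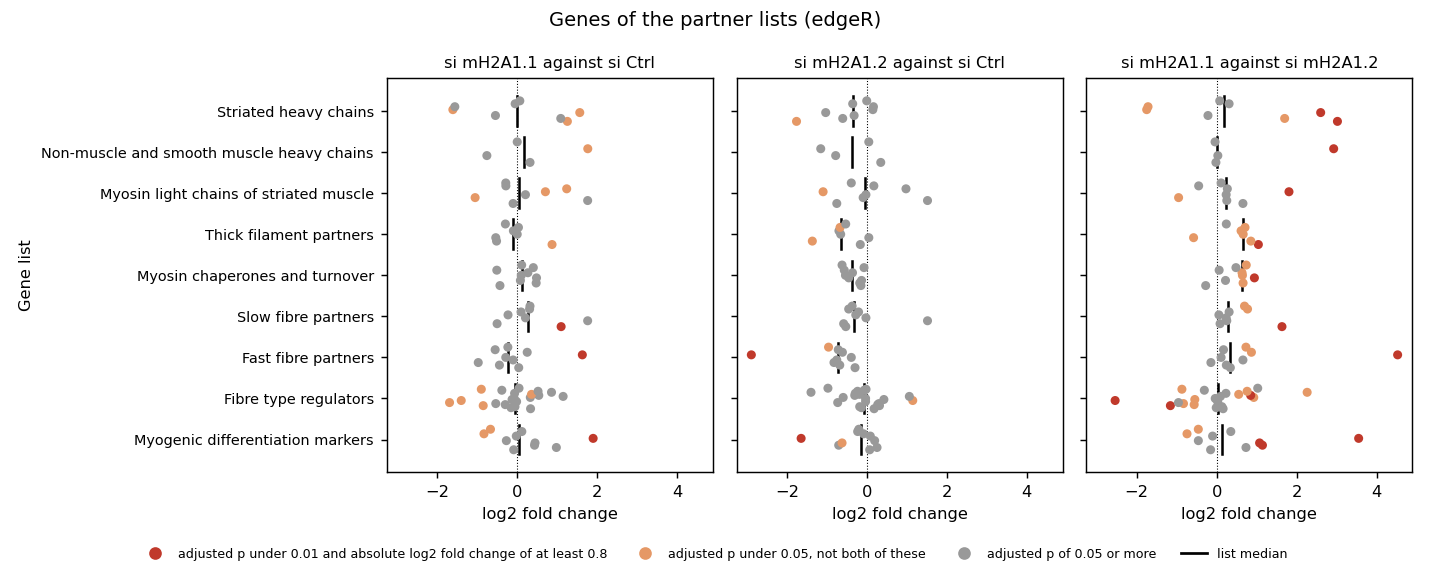
Log2 fold change of each tested gene (point) of the lists of partner genes in the 3 comparisons, with the list median as a black bar and the same colours for the calls as before. The point beyond 4 in the comparison of both knockdowns and the lowest in the middle panel is Pvalb, among the fast fibre partners.

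Of the 10 differentiation markers, Myf6, the myogenic factor MRF4, was called in all 3 comparisons. It had 159, 130 and 130 counts with si Ctrl, 498, 609 and 613 in macroH2A1.1-depleted cells and 46, 45 and 41 in macroH2A1.2-depleted cells, so the conditions were far apart. Myf6 rose in macroH2A1.1-depleted cells by 1.90 on the log2 scale (standard error 0.15, adjusted p = 0.000347) and fell in macroH2A1.2-depleted cells by 1.64 (standard error 0.17, adjusted p = 0.00481, called in 2 of 9 single omissions). Myog, myogenin, went the other way in macroH2A1.1-depleted cells (log2 fold change -0.66, adjusted p = 0.0204), as did the fusion gene Mymx (-0.82, adjusted p = 0.0221). In si mH2A1.1 against si Ctrl DESeq2 also called Mymx lower, and the replicate block also called Cdh15 higher. Between both knockdowns Ckm, muscle creatine kinase (1.14, adjusted p = 0.00241, called in 7 of 9 single omissions), and Des, desmin (1.07, adjusted p = 0.000844), were called higher in macroH2A1.1-depleted cells. Des was also lower in si mH2A1.2 against si Ctrl (-0.62, adjusted p = 0.0466). By edgeR 1, 1 and 3 of the 10 were called in the 3 comparisons, beside 1.8%, 0.179% and 6.38% of all tested genes. At an adjusted p under 0.05, 1 was higher and 2 lower in si mH2A1.1 against si Ctrl, beside 6.18% and 4.93%. Between both knockdowns 3 were higher and 2 lower, beside 12.0% and 10.5%.

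Summed markers of other cell states also differed between both knockdowns. The summed level of the 5 fibroblast markers, all above 3 counts and led by Col1a1, was 503 to 1330 CPM in macroH2A1.1-depleted cells, 2414 to 3758 CPM with si Ctrl and 6970 to 9932 CPM in macroH2A1.2-depleted cells. This order rested on Col1a1, at 268.5 to 843 CPM, 2108 to 3396 CPM and 6435 to 9381 CPM. The other 4 summed to 235 to 487 CPM, 307 to 405 CPM and 535.5 to 560 CPM, where macroH2A1.1-depleted and control cells overlapped. The 5 cycling markers summed to 376 to 791 CPM, 262 to 420 CPM and 206 to 309 CPM in that order of conditions, and the 2 myoblast markers Pax7 and Myf5 to 58.3 to 69.0 CPM, 43.0 to 57.1 CPM and 19.7 to 31.9 CPM. The 4 smooth muscle markers, led by Acta2 with Myh11 at 8 to 25 counts, summed to 1604 to 1959 CPM, 1555 to 2672 CPM and 2397 to 3227 CPM. The 6 cardiac markers, 4 of them above 3 counts, summed to 1369 to 1658 CPM, 978 to 1805 CPM and 789 to 1137 CPM. For the cycling, smooth muscle and cardiac sums, si Ctrl overlapped both knockdowns, which did not overlap each other. The part of these cell states in the differences between the myosin genes was not tested.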

How the data were processed

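Messenger RNA was measured in 9 samples by single reads of 50 bp, and the authors estimated the reads per gene with Salmon on GRCm38. The deposited table holds these expected counts as whole numbers. The other deposited table is a normalized signal, in which each count is divided by 1 size factor per sample (0.950 to 1.13), and was used to check the first. Gene names, exon lengths and positions came from GENCODE M21, which names 52762 of the 52780 genes, and the annotation release of the authors is not given in the sources used here.

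Levels were tested in R 4.3.3 with edgeR 4.0.16 (legacy quasi-likelihood form, TMM, filterByExpr) in 1 model of the 9 samples, adjusted over all tested genes. The alternatives used DESeq2 1.42.0, limma 3.58.1 (voom), other filters and scaling, a replicate block and leaving out each sample. Shares were counts divided by merged exon length, tested in Python 3.11.15 with scipy 1.17.1 and numpy 2.4.6. The model fits and the permutation test were tested on simulated data. Intervals cover the spread between samples, and 3 counts were taken as the floor of detection.

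For the replicate numbers, deviations of log2 CPM from the group means were correlated. Same-numbered pairs gave r of 0.331, 0.291 and 0.196 for si Ctrl and si mH2A1.2, 0.084 to 0.098 for si Ctrl and si mH2A1.1, and 0.092 to 0.116 for both knockdowns. Numbers were read as pairing the samples where r was over 0.1 in all 3 pairs, which held for si mH2A1.2 and si Ctrl, while the others fell short by a narrow margin. Pairs of unlike number gave r of -0.267 to 0.036, below every same-numbered pair. No pairing is stated in the labels. The column names of the count table run consecutively across the 3 conditions within each replicate number, and what this order stands for is not given.

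Myosin genes and partner lists were chosen with earlier results of these data known. Named genes were the 8 members, the called genes of each list (at most 3 per direction, otherwise the most abundant), tested genes within 50 kb and the 2 genes with the most similar pattern; genes named at an adjusted p under 0.05 beyond these were chosen after their values were seen. In the promoters, sequences were taken from RefSeq on GRCm38.p6, with a match for all 8 genes. Some genes that these rules would name are not reported here.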

Additional observations from a re-analysis of the deposited data

How the results depend on the processing

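The number of the 8 genes called was 0 in si mH2A1.1 against si Ctrl, and 3 at an adjusted p under 0.05 without a fold cutoff, 2 with DESeq2, 4 without a filter on low counts, 1 with the 6 samples of the comparison only, 2 with the replicate block, 5 with the replicate block in DESeq2 (added after the data were seen) and 0 to 1 when 1 sample was left out. In si mH2A1.2 against si Ctrl it was 0, and 1 at an adjusted p under 0.05, with DESeq2 and without a filter, 2 with the replicate block in DESeq2, 0 with the replicate block and 0 in every single omission. Between both knockdowns it was 2, and 5 at an adjusted p under 0.05, without a filter, with the replicate block and with the replicate block in DESeq2, 4 with DESeq2, 3 with limma-voom and with the 6 samples only, and 2 to 3 when 1 sample was left out. All 9 samples correlated best with their own replicate number in both other conditions, a hint from the data that the numbers may mark pairs there too. With the replicate block, Myh1 (adjusted p = 0.00954) and Myh4 (0.00289) were called in si mH2A1.1 against si Ctrl, and Myh1, Myh2, Myh4, Myh6 and Myh7 between both knockdowns. Over all tested genes the replicate block moved the calls from 352 to 795, from 35 to 116 and from 1247 to 1742. Without division by length, or per longest coding transcript, the developmental share with si mH2A1.2 was 92.2% or 92.3%, and the slow and cardiac share was 3.59% or 3.50% with si Ctrl and 4.86% or 4.74% with si mH2A1.2, and 2.04% without division by length with si mH2A1.1. The p of the Myh2 share was 0.0556 with the replicate block. Over the single omissions, log2 fold changes near 0 changed sign, with ranges of -0.218 to 0.241 for Myh7b and -0.213 to 0.272 for Myh8 with si mH2A1.1, -0.0536 to 0.497 for Myh6 and -0.0190 to 0.519 for Myh7 with si mH2A1.2 (negative without si Ctrl replicate 2), and -0.0924 to 0.467 for Myh8 between both knockdowns. For Myh8 with si mH2A1.2 it was 0.0096 in limma-voom, 0.00012 with at least 10 counts in every sample, 0.011 with the replicate block, 0.0055 with the replicate block in DESeq2, 0.0049 with the 6 samples only and -0.40 to 0.20 in single omissions. The cause of these changes was not tested. Of the log2 fold changes, 380 alternative values kept direction and side of the threshold, 33 newly passed it and 19 changed sign.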
